A study of Mus musculus with 6 samples.

Results

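The genes described here are 42 genes of TGF-beta and BMP signalling, out of 50686 gene identifiers in the count files. They were chosen by name as genes of the pathway, with earlier results of these data known. By role they comprise 3 TGF-beta ligands, 9 BMP and GDF ligands, 3 inhibin and activin subunits, 3 TGF-beta receptors, 6 BMP and activin receptors, 4 secreted antagonists, 2 latent TGF-beta binding proteins, 8 Smads and 4 Id genes. All 42 symbols were matched to an identifier, and 33 had enough reads to be tested.

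Ligands of this family bind pairs of serine/threonine kinase receptors, which phosphorylate receptor-regulated Smads. TGF-beta and activin receptors act through Smad2 and Smad3, BMP receptors through Smad1, Smad5 and Smad9, and both branches share Smad4. Smad6 and Smad7 inhibit the receptors, and Noggin, Chordin, Follistatin and Gremlin trap ligands outside the cell. The latent binding protein Ltbp1 holds TGF-beta in the matrix. The Id genes are direct BMP targets that keep neural progenitors from differentiating. Many ligand and antagonist genes of developmental pathways carry H3K27me3, the repressive histone mark that Polycomb complexes, of which Bmi1 is a subunit, write and read.

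Neural stem cells (NSC) came from embryonic mouse brain at day E16.5, from wild type embryos or from embryos of the genotype STOPFloxBmi1;NestinCre, in which a Cre recombinase under the Nestin promoter removes a stop cassette in front of a Bmi1 transgene in neural progenitors (NSC Bmi1Over). Cells of both groups were primary cultures with EGF and bFGF, grown as neurospheres or adherent; which was used for these libraries is not given in the sources used here. RNASeq covered 2 libraries per group, and H3K27me3 ChIPSeq gave 1 peak list per group, so peaks had no replicate check. The glioma-initiating cells of the study were not analysed here.

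The RNASeq libraries held 18112100 to 61353076 reads on genes, with NSC Bmi1Over replicate 2 the deepest and NSC Bmi1Over replicate 1 the shallowest. The genes of the list took 0.184% and 0.19% of the reads in NSC and 0.197% and 0.209% in NSC Bmi1Over. The 10 most abundant genes of each library took 5.23% and 6.48% of the reads in NSC and 8.57% and 10.1% in NSC Bmi1Over, and 11.2% and 13.7% of reads against 16.2% and 17.6% were unmapped; the part of these gaps in the differences below was not tested. Bmi1 itself, the gene the transgene carries, stood at 133.3 and 123.5 CPM (reads of a gene scaled to its library size) in NSC and at 118.6 and 112.6 CPM in NSC Bmi1Over, a log2 fold change of -0.15 with an edgeR adjusted p of 0.463. Bmi1 was thus not higher in the libraries labelled NSC Bmi1Over, and each direction below is between libraries by their labels. The 10 neural stem cell markers looked at summed to 5999 and 6667 CPM in NSC and to 6537 and 6696 CPM in NSC Bmi1Over, and none of them was called. For 7 of the 10 the log2 fold change was negative, and for 6 both NSC Bmi1Over libraries lay below both NSC libraries, beside 30% of all tested genes, from Hes5 at -0.74 (edgeR adjusted p = 0.132) and Sox2 at -0.42 (0.129) to Vim at -0.10; Slc1a3, the most abundant, had 0.46.

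In NSC, H3K27me3 lay at the promoters of 7 of 15 ligand genes, 2 of 4 antagonists, 1 of 2 inhibitory Smads, 1 of 2 latent binding proteins, 1 of 4 Id genes and 1 of 9 receptor genes, and at none of the 6 other Smads. A promoter peak is a deposited peak overlapping the 5 kb to either side of any annotated transcription start site (TSS) by at least 1 bp. The promoter window of a gene joins these stretches over all its TSSs. Its size thus differs by gene, from 10001 bp for Gdf6 to 30037 bp for Tgfbr3 among the genes marked below. In the NSC list 13 of the 42 genes had one, which is 31% of them, beside 8.93% of all 21841 protein-coding genes. They were the ligand genes Tgfb1, Bmp2, Bmp3, Bmp4, Bmp6, Gdf6 and Gdf10, the antagonist genes Nog and Grem1, Ltbp2, the inhibitory Smad6, the co-receptor gene Tgfbr3 and Id4. In the NSC Bmi1Over list 11 of the 42, or 26.2%, had one, beside 4.46% of protein-coding genes. Those 11 were the same genes without Bmp2 and Bmp3, and no gene of the 42 was marked in the NSC Bmi1Over list alone. Of all protein-coding genes marked in the NSC Bmi1Over list, 94.6% were also marked in NSC. The remaining 29 genes, among them Tgfbr1, Tgfbr2, the 6 BMP and activin receptor genes, the 6 receptor-regulated and common Smads and Id1 to Id3, had no peak at the promoter or anywhere in the gene body in either list. Of these unmarked genes, Smad5 had the NSC peak closest to a TSS, at 19715 bp.

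Promoters with and without the mark are shown as the 250 bases before the RefSeq start of the gene, in build GRCm38.p6, read 5′ to 3′ on the strand of the gene, with each CpG in capitals. Ltbp2 (chr12:84876492-84876741, minus strand) is shown because all 250 bases lay in peaks of both lists. Grem1 (chr2:113758649-113758898, minus strand) and Smad6 (chr9:64022060-64022309, minus strand) are shown because all 250 bases lay in an NSC peak and none in a NSC Bmi1Over peak. Tgfbr2 (chr9:116175364-116175613, minus strand) and Id3 (chr4:136143572-136143821, plus strand) are shown as unmarked promoters, Tgfbr2 being the receptor gene that rose and Id3 the gene with the highest level per kb of exon in NSC.
Ltbp2: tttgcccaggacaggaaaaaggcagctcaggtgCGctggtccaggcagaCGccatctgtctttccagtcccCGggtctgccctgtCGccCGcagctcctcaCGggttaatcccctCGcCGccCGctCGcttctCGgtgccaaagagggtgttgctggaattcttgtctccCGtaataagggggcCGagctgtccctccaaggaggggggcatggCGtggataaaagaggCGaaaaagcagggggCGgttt
Grem1: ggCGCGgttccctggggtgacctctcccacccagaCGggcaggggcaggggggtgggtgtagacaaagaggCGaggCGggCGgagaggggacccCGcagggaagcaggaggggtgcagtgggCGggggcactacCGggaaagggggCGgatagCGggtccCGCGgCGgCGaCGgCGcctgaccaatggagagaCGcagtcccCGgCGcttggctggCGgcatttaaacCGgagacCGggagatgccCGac
Smad6: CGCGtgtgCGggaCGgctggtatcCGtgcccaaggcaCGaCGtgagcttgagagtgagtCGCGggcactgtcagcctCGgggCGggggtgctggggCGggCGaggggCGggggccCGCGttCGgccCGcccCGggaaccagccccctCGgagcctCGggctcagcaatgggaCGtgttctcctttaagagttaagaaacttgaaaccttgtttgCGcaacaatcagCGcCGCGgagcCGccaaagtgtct
Tgfbr2: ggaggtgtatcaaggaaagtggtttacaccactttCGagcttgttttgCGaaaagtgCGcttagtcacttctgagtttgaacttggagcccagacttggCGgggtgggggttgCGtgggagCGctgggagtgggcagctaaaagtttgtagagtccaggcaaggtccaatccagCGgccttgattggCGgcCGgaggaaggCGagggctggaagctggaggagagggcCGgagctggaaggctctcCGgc
Id3: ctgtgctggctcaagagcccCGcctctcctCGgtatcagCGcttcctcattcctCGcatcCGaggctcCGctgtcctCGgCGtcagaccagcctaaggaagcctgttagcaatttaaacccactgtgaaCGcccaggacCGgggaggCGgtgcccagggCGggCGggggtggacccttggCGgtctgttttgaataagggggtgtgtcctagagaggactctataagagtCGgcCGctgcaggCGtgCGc

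These windows hold 16 CpG in Ltbp2, 24 in Grem1, 27 in Smad6, 12 in Tgfbr2 and 18 in Id3. The RefSeq table held promoters for 30 of the 42 genes. Of these, 8 genes had an NSC peak within 5 kb of a TSS, and in 4 of them (Bmp4, Gdf10, Id4 and Tgfb1) the 250 bases themselves lay outside any peak. Over these 8 genes the count ran from 11 to 35 with a median of 23, and over 28 promoters of 22 unmarked genes from 1 to 49 with a median of 21.5. The median over all 32841 promoters of the table was 6, below the median of the promoters of marked genes and of unmarked genes alike. The letters GTCT, the core that Smad3 and Smad4 bind, were searched on both strands and occurred in 7 of the 8 windows of marked genes (87.5%) and 23 of the 28 of unmarked genes (82.1%), beside 82.9% of all promoters. GGCGCC, a GC-rich Smad-binding sequence, occurred in 2 of 8 and 7 of 28, which is 25% of each, beside 9.59% of all promoters.

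Gdf6, a BMP ligand of skeletal and eye development, had the largest share of its promoter window in peaks among the 42 genes, in both lists. Its NSC peaks covered 51% of the promoter window, and its widest peak, at chr4:9844664-9848524, was 3861 bp long with a fold enrichment of 7.05 over background and a -log10 q of 9.53. In the NSC Bmi1Over list 4 shorter peaks covered 27.5% of the window. Ltbp2 had a single NSC peak of 2916 bp over its TSS (chr12:84874442-84877357, fold enrichment 6.59, -log10 q 8.42), and 3 peaks of 398 to 610 bp within or beside the same stretch in NSC Bmi1Over. Smad6 had an NSC peak of 2829 bp over its main start (chr9:64019537-64022365, fold enrichment 6.47), where the NSC Bmi1Over list held 557 bp inside the gene.

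Of the antagonist genes, Grem1 and Nog carried the mark. Grem1, which encodes a BMP antagonist, had 6 NSC peaks covering 46.6% of the window, the strongest across the TSS (chr2:113758345-113759621, fold enrichment 5.26), and 2 NSC Bmi1Over peaks covering 5.16%, both downstream. Nog, the gene of the BMP trap Noggin, had an NSC peak of 3090 bp starting 200 bp after its TSS (chr11:89299043-89302132, fold enrichment 5.23), and 35% of its window was covered against 10.7% in NSC Bmi1Over. Chrd and Fst, the other antagonist genes, had no peak.

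Among the remaining ligands, Bmp4 was covered over 24.4% of its window in NSC and 5.36% in NSC Bmi1Over. Tgfb1 was covered over 22% and 1.3%, with an NSC peak of 2556 bp that begins beside its first start site (chr7:25687011-25689566). Bmp6 was covered over 12.5% and 1.02%, and Gdf10 over 8.08% and 4.56%. For Bmp2 and Bmp3 the NSC peaks were short and weak, 326 to 514 bp long with fold enrichments of 3.54 to 4.03, and the values in NSC Bmi1Over were 0. The smallest fold of any peak was 4.03 in the NSC Bmi1Over list and 3.52 in the NSC list. Gdf10, with NSC peaks of fold enrichment 3.76 and 3.67, had an NSC Bmi1Over peak of 4.32. The part of the higher limit in the absence of Bmp2 and Bmp3 peaks was not tested.

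Id4 and Tgfbr3 carried their peaks away from the start. Id4, the Id gene with the lowest level, had 4 NSC peaks from 1416 bp after its TSS onwards, covering 24.7% of the window, and 2 NSC Bmi1Over peaks covering 10.1%. Tgfbr3, the gene of the co-receptor betaglycan, had 6.96% and 0.666% of its promoter window covered. That window, of 30037 bp, is the largest of the marked genes. In NSC its covered part was 2090 bp, against 808 bp for Gdf10. Its gene body of 183060 bp held 40 NSC peaks over 16.7% of its length and 14 NSC Bmi1Over peaks over 3.44%. In NSC 9 of 21841 protein-coding genes, Tgfbr3 included, had at least as many peaks, and in NSC Bmi1Over 34 did.

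In the 11 genes marked in both lists, the NSC Bmi1Over peaks covered fewer bases of the window in 11 of 11. The ratio of covered bases ran from 0.0589 for Tgfb1 to 0.564 for Gdf10, with a median of 0.22. The same direction held for 97% of the 922 protein-coding genes marked in both lists, whose median ratio was 0.392, so the direction was that of the lists as a whole. The NSC list held 12982 peaks over 11.5 Mb and the NSC Bmi1Over list 6810 over 4.81 Mb; the lists were called separately, each on 1 replicate, and the study's methods give unequal read totals for the ChIPSeq replicates, so that depth and the amount of the mark cannot be told apart. Of the marked genes of the family in NSC, 84.6% were also marked in NSC Bmi1Over, beside 47.3% of all marked genes. With a window of 1 kb the marked genes numbered 11 in NSC and 4 in NSC Bmi1Over, beside 6.56% and 3.05% of protein-coding genes. With peaks of at least 1000 bp they numbered 8 and 1, the latter being Gdf6, beside 3.97% and 1.56%.

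**Figure D1:**
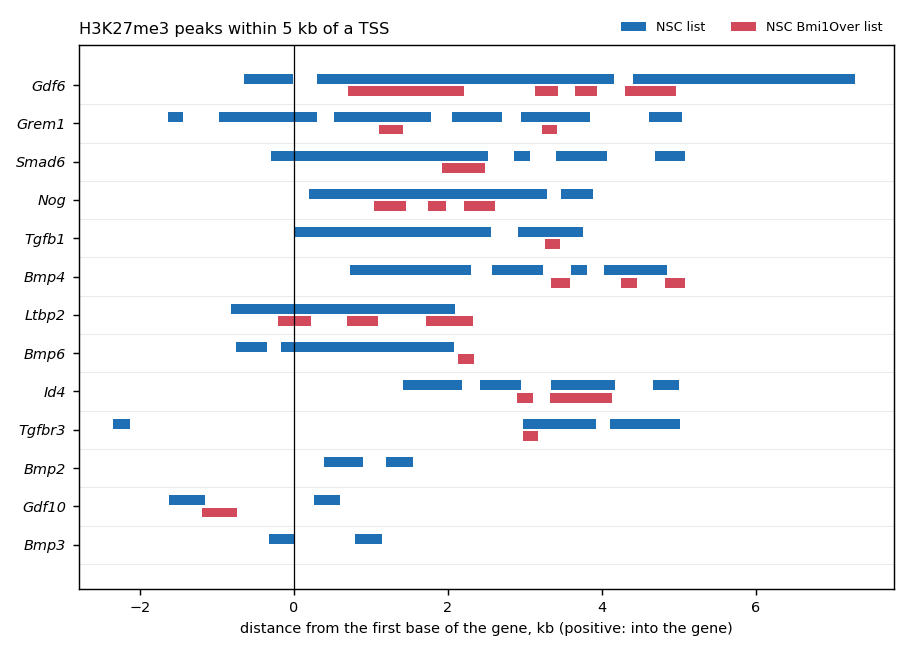
H3K27me3 peaks in the promoter windows of the 13 marked genes, drawn to scale by distance in kb from the first base of each gene on its own strand, with NSC peaks in blue and NSC Bmi1Over peaks in red. Summed over a gene, the red bars cover fewer bases of the window than the blue for the 11 genes with both, Bmp2 and Bmp3 have blue bars only, and most bars lie inside the gene.

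Marked genes had low RNA. Per kb of exon, the median level of the 13 marked genes was 0.0538 and 0.0304 CPM in the NSC libraries and 0.0535 and 0.0662 in the NSC Bmi1Over libraries, against 6.52, 7.12, 6.78 and 7.34 for the 29 unmarked genes in the same order. The highest marked gene in NSC was Nog at 0.897 CPM per kb. Over all protein-coding genes the medians in the NSC libraries were 0.101 and 0.0991 CPM per kb with a promoter peak and 1.31 and 1.3 without one. The ranges overlapped: the unmarked Smad9, Smad7 and Fst had 0.347, 0.528 and 0.618 CPM per kb in NSC, below Nog and the marked Id4 at 0.735, and the unmarked Bmp5 and Inhba had 0 and 0 reads and 1 and 3 reads in NSC.

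**Figure D2:**
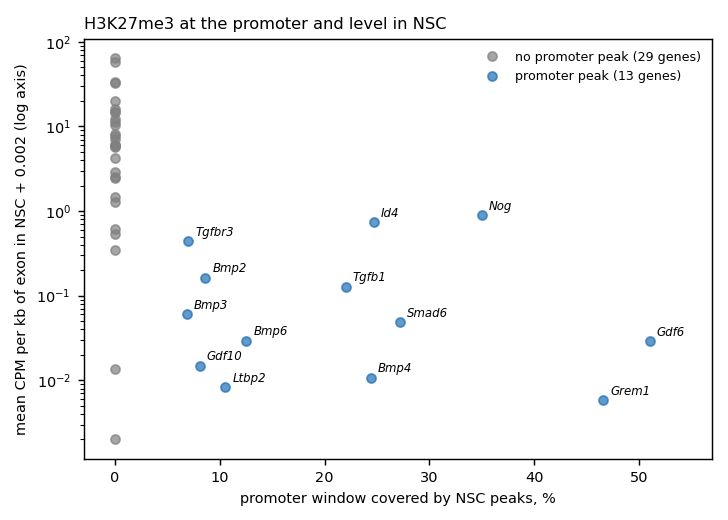
Percentage of the promoter window covered by NSC peaks (x axis) against the mean level in NSC in CPM per kb of exon plus 0.002 on a log axis (y axis), with 1 point per gene. The window differs in size between genes. The 13 marked genes, named, lie at or below 0.897, and most of the 29 unmarked genes lie above.

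By level, 24 of the 42 genes had at least 1 CPM per kb in NSC. Id3 had the highest level at 63.5 ± 0.512 CPM per kb (SD, n = 2), followed by Bmp7 at 58.2 ± 11.96, Smad5 at 33.1 ± 3.25 and Bmpr1a at 32.8 ± 2.2. The first 2 and the next 2 in this order do not differ beyond their spread. Smad4 stood at 19.8 ± 1.09, Tgfbr1 at 15.9 ± 2.52, Id1 at 14.96 ± 1.67, Bmpr2 at 14.7 ± 1.08, Id2 at 12.4 ± 0.00672 and Gdf11 at 11.2 ± 1.62, where Tgfbr1, Id1 and Bmpr2 lie within their spread of each other. At the other end 10 genes had under 0.1 CPM per kb in NSC, and the 9 that could not be tested (Bmp4, Bmp5, Bmp6, Gdf6, Gdf10, Inhba, Grem1, Ltbp2 and Smad6) reached at most 14 reads in any library. Bmp7 was the only ligand besides Gdf11 among the 10 highest.

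**Figure D3:**
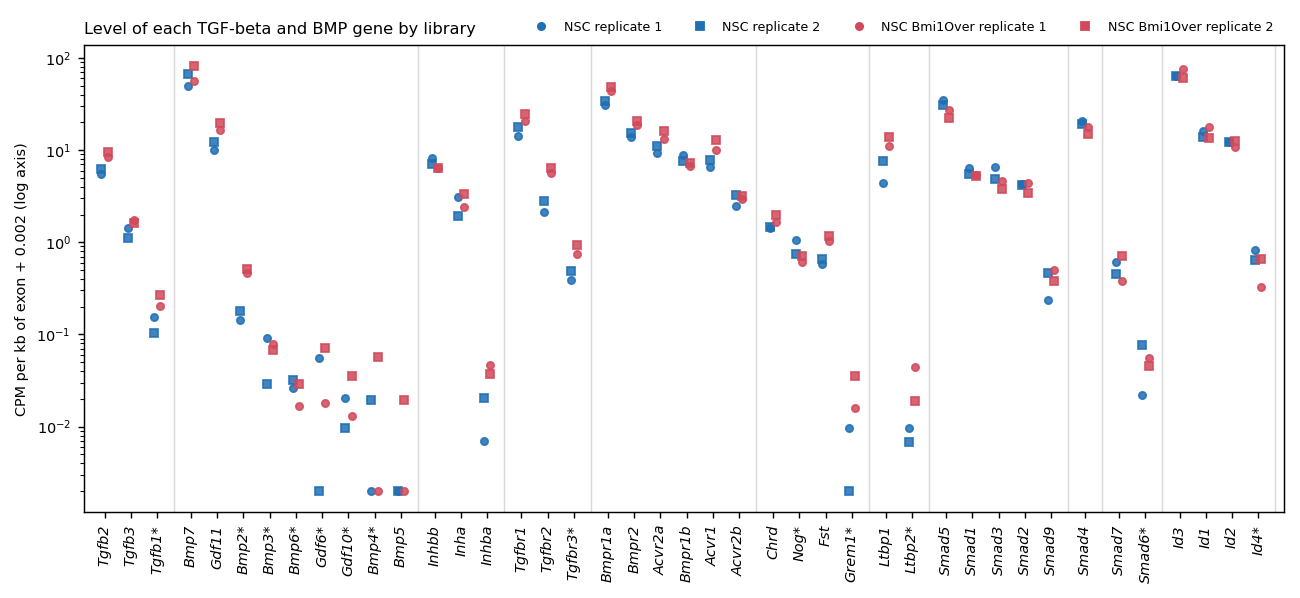
Level of each of the 42 genes in each of the 4 RNASeq libraries, in CPM per kb of exon plus 0.002 on a log axis, grouped by role and ordered by NSC level within a role. Blue symbols are NSC and red NSC Bmi1Over, and a star marks the 13 genes with an NSC promoter peak, all of which lie below 1 CPM per kb in NSC on average.

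Between the groups, Bmp2 and Tgfbr2 rose in NSC Bmi1Over, and no gene of the list was called lower in the fit reported here. These are 2 of the 33 tested genes, against 2.03% of all 15521 tested genes called higher and 0.122% called lower by the quasi-likelihood test of edgeR at an adjusted p under 0.05. The log2 fold change was positive for 23 of the 33 and negative for 10, with a median of 0.239, and the median over all tested genes was -0.0139. When scaled by library size alone these medians were 0.0892 and -0.165, and Acvr2b, Smad7, Id1 and Id3 turned negative. In 15 of the 33 both NSC Bmi1Over libraries were above both NSC libraries, and in 7 they were below, beside 29% and 30% of all tested genes. By the Wald test of DESeq2 11 of the 33 were called, all higher, beside 8.36% of all genes called higher. These 11 were Bmp2, Tgfb2, Gdf11, Tgfbr1, Tgfbr2, Tgfbr3, Bmpr1a, Bmpr2, Acvr1, Acvr2a and Ltbp1. The edgeR count was 1 without NSC replicate 1, 9 without NSC replicate 2, 13 without NSC Bmi1Over replicate 1 and 1 without NSC Bmi1Over replicate 2. Over all genes the calls in these fits numbered, in the same order, 176 of 15871, 1461 of 16356, 2546 of 16345 and 230 of 15872, so the count for the list moved with the count over all genes. The calls without NSC replicate 2 include Smad3 as lower, and those without NSC Bmi1Over replicate 1 include Smad3 and Smad5 as lower. With 2 libraries a group, permuting their labels for 1 gene gives an exact two-sided p of 0.333 at best, and p-values measure the spread between these libraries only.

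Tgfbr2 encodes the type II receptor that binds TGF-beta and starts the signal. It stood at 17.5 and 23.0 CPM in NSC and at 46.3 and 52.8 CPM in NSC Bmi1Over, so that the lower NSC Bmi1Over library was above the higher NSC library. Its log2 fold change was 1.30 (SE 0.16, edgeR adjusted p = 0.0132), a 2.45-fold difference with a 95% interval of 0.93 to 1.66 on the log2 scale. It was called in all 12 alternative settings, with log2 values of 1.11 to 1.5. No H3K27me3 peak lay at Tgfbr2 in either list, and its printed promoter lies in none.

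Tgfbr1, the type I partner of Tgfbr2, stood at 92.0 and 115.3 CPM in NSC and at 134.7 and 160.6 CPM in NSC Bmi1Over. The groups did not overlap, and the log2 fold change of 0.51 (SE 0.16) had an edgeR adjusted p of 0.1. Tgfbr3 stood at 2.57 and 3.16 CPM in NSC and at 4.91 and 6.18 CPM in NSC Bmi1Over, with a log2 value of 0.97 (SE 0.25, adjusted p = 0.0729). In both genes the NSC Bmi1Over libraries lay above the NSC libraries, as in 29% of all tested genes, and neither passed the edgeR test. Both were called higher by the DESeq2 Wald test, beside 8.36% of all tested genes. Tgfbr3 is the marked receptor gene, with fewer peaks in the NSC Bmi1Over list, which held fewer peaks as a whole.

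Bmp2, a BMP ligand that drives astrocyte differentiation of neural progenitors, was low in every library. It had 16 and 16 reads in NSC and 29 and 105 reads in NSC Bmi1Over, which is 0.507 and 0.633 CPM against 1.66 and 1.84 CPM. Both NSC Bmi1Over libraries lay above both NSC libraries, as in 29% of all tested genes. The log2 fold change was 1.63 (SE 0.33, edgeR adjusted p = 0.0471), a 3.10-fold difference. The adjusted p was 0.26 without NSC replicate 1 and 0.158 without NSC Bmi1Over replicate 2, and 0.0518 with the size factors of DESeq2 in the edgeR fit; the log2 value stayed between 1.47 and 1.78 in all 12 alternatives. Bmp2 is also a gene whose weak NSC peaks had no counterpart in the NSC Bmi1Over list. Of 1950 protein-coding genes marked in NSC, 1028 were marked in NSC only, and 23 of the 624 tested among these were called. Bmp3, the other such gene here, had a log2 value of 0.20 (edgeR adjusted p = 0.834). A link between the peaks and the RNA was not tested.

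The other tested ligands did not pass the edgeR test. The DESeq2 Wald test, which called 8.36% of all tested genes higher, called Tgfb2 and Gdf11 higher (adjusted p of 0.00757 and 0.00397). Tgfb2, the most abundant TGF-beta ligand here, stood at 32.0 and 36.2 CPM in NSC and at 49.2 and 54.9 CPM in NSC Bmi1Over, with a log2 value of 0.61 (SE 0.13, adjusted p = 0.0526). Gdf11, a ligand of the activin branch that limits neurogenesis, stood at 40.9 and 50.2 CPM against 66.8 and 79.1 CPM, with a log2 value of 0.68 (SE 0.15, adjusted p = 0.0556). These 2 genes missed the edgeR threshold narrowly. In both, the NSC Bmi1Over libraries lay above the NSC libraries, as in 29% of all tested genes. Tgfb1 stood at 0.761 and 0.514 CPM against 1.03 and 1.35 CPM, a log2 value of 0.92 with an SE of 0.36 and an adjusted p of 0.17. Tgfb1 thus had one of the 5 largest positive values of the list, on 13 to 77 reads per library.

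Bmp7, by far the most abundant BMP ligand per kb, stood at 199.9 and 267.8 CPM in NSC and at 224.6 and 326.6 CPM in NSC Bmi1Over. The groups overlapped (log2 fold change 0.24, SE 0.21, adjusted p = 0.505). Bmp3 stood at 0.665 and 0.198 CPM in NSC and 0.571 and 0.49 CPM in NSC Bmi1Over, and these too overlapped. Tgfb3, Inha and Inhbb had log2 values of 0.39, 0.22 and -0.26 with adjusted p of 0.317, 0.667 and 0.264.

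The 6 ligands with few reads were close to the depth limit of 3 counts in several libraries, which is 0.0525 to 0.171 CPM. In the order of NSC 1, NSC 2, NSC Bmi1Over 1 and NSC Bmi1Over 2, Bmp4 had 0, 1, 0 and 7 reads, Bmp6 had 3, 3, 1 and 6, Gdf6 had 6, 0, 1 and 14, and Gdf10 had 3, 1, 1 and 10. The highest count was each time in the deepest library. Bmp5 had 0, 0, 0 and 4 reads, with 46.7% of its exons overlapped by an antisense gene, where the unstranded count leaves reads out, and Inhba had 1, 3, 5 and 13. In CPM the groups of Inhba did not overlap, at 0.0317 and 0.119 against 0.286 and 0.228, while those of the other 5 did, and none of the 6 had enough reads for a test.

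None of the 6 receptor genes for BMP and activin was called by edgeR. The DESeq2 Wald test, which called 8.36% of all tested genes higher, called Bmpr1a, Bmpr2, Acvr1 and Acvr2a higher (adjusted p of 0.0195, 0.0494, 0.00826 and 0.0347). In these 4 genes both NSC Bmi1Over libraries lay above both NSC libraries, and in Bmpr1b both lay below, beside 29% and 30% of all tested genes. Bmpr1a, a type I BMP receptor, stood at 198.3 and 218.1 CPM in NSC and at 276.0 and 306.4 CPM in NSC Bmi1Over (log2 fold change 0.48, SE 0.14, adjusted p = 0.0945). Bmpr2, the type II BMP receptor, stood at 251.2 and 278.6 CPM against 337.0 and 369.9 CPM (log2 fold change 0.42, SE 0.15, adjusted p = 0.138). In both the groups lay apart. Acvr1 and Acvr2a had log2 values of 0.68 and 0.52 with adjusted p of 0.0651 and 0.0897, and Acvr2b, whose groups overlapped, had 0.10 with 0.755. Bmpr1b was the exception in direction at -0.22 (adjusted p = 0.327). Reads in the 7.84% of Acvr2a exons that the antisense gene Orc4 overlaps are left out of the unstranded count, and with the stranded columns summed Acvr2a had 1867 reads in NSC replicate 1 in place of 1686.

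Ltbp1, which binds latent TGF-beta and holds it in the matrix, spread widely within NSC. It stood at 47.4 and 82.3 CPM in NSC and at 118.0 and 146.6 CPM in NSC Bmi1Over, with a log2 fold change of 1.03 (SE 0.24, edgeR adjusted p = 0.0628). The groups lay apart, with NSC Bmi1Over higher as in 29% of all tested genes, but the NSC libraries themselves stood far apart. The log2 value was 0.68 without NSC replicate 1 and 1.48 without NSC replicate 2, and Ltbp1 was called in 6 of 12 alternatives. Ltbp2, marked in both lists, had 2, 1, 6 and 8 reads in the 4 libraries, too few for a test.

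None of the 3 tested antagonist genes passed the test, and their log2 values differed in sign. Fst, the gene of the activin trap Follistatin, stood at 2.66 and 3.01 CPM in NSC and at 4.68 and 5.32 CPM in NSC Bmi1Over (log2 fold change 0.83, SE 0.23, adjusted p = 0.0874). Nog stood at 1.77 and 1.27 CPM against 1.03 and 1.21 CPM, so its groups lay apart by a small gap in the other direction (log2 fold change -0.42, SE 0.32, adjusted p = 0.429), and its log2 value was -0.16 without NSC replicate 1 and -0.65 without NSC replicate 2. Chrd had a log2 value of 0.35 with an adjusted p of 0.268, and Grem1 had 1, 0, 1 and 8 reads.

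Smads had log2 values from -0.46 to 0.33, and none was called in the fit reported here. Smad5, the most abundant Smad per kb, stood at 262.4 and 228.4 CPM in NSC and at 200.8 and 167.5 CPM in NSC Bmi1Over (log2 fold change -0.42, SE 0.15, adjusted p = 0.149). Smad3, the TGF-beta effector, stood at 36.6 and 27.1 CPM against 25.6 and 20.9 CPM (log2 fold change -0.46, SE 0.18, adjusted p = 0.161). Smad4 stood at 76.5 and 70.7 CPM against 65.4 and 55.9 CPM (log2 fold change -0.28, SE 0.13, adjusted p = 0.228). In these 3 genes, and in Smad1 at 40.0 and 34.7 CPM against 33.4 and 32.8 CPM, both NSC Bmi1Over libraries lay below both NSC libraries, as in 30% of all tested genes. Smad3 was called lower in 4 of 12 alternatives, at -0.67 without NSC replicate 2 (edgeR adjusted p = 0.043) and -0.61 without NSC Bmi1Over replicate 1 (adjusted p = 0.0474) among them, but stood at -0.23 without NSC replicate 1 (adjusted p = 0.925) and -0.32 without NSC Bmi1Over replicate 2 (adjusted p = 0.472). Smad5 was called lower in 2 of 12, at -0.56 without NSC Bmi1Over replicate 1 (edgeR adjusted p = 0.0489) and in the fit with the replicate block. Smad1, Smad2 and Smad9 had log2 values of -0.18, -0.11 and 0.33, and Smad7 had 0.09, with adjusted p of 0.422 to 0.881. Smad6, whose promoter carried one of the wider NSC peaks, had 2, 6, 3 and 8 reads.

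Id genes, the BMP targets, overlapped between the groups, and none was called. Id3 stood at 113.1 and 114.4 CPM in NSC and at 136.5 and 109.7 CPM in NSC Bmi1Over, with a log2 fold change of 0.11 and a 95% interval of -0.21 to 0.44. Id1 stood at 18.7 and 15.98 CPM against 20.5 and 15.8 CPM (0.05, interval -0.34 to 0.45), and Id2 at 30.2 and 30.2 CPM against 26.2 and 30.7 CPM (-0.08, interval -0.39 to 0.22). These intervals bound the change that the libraries leave room for. Id4 stood at 3.17 and 2.49 CPM against 1.26 and 2.503 CPM, a log2 value of -0.51 with an SE of 0.34 and an adjusted p of 0.377. Its log2 value was -1.17 without NSC Bmi1Over replicate 2 and -0.19 without NSC Bmi1Over replicate 1.

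**Figure D4:**
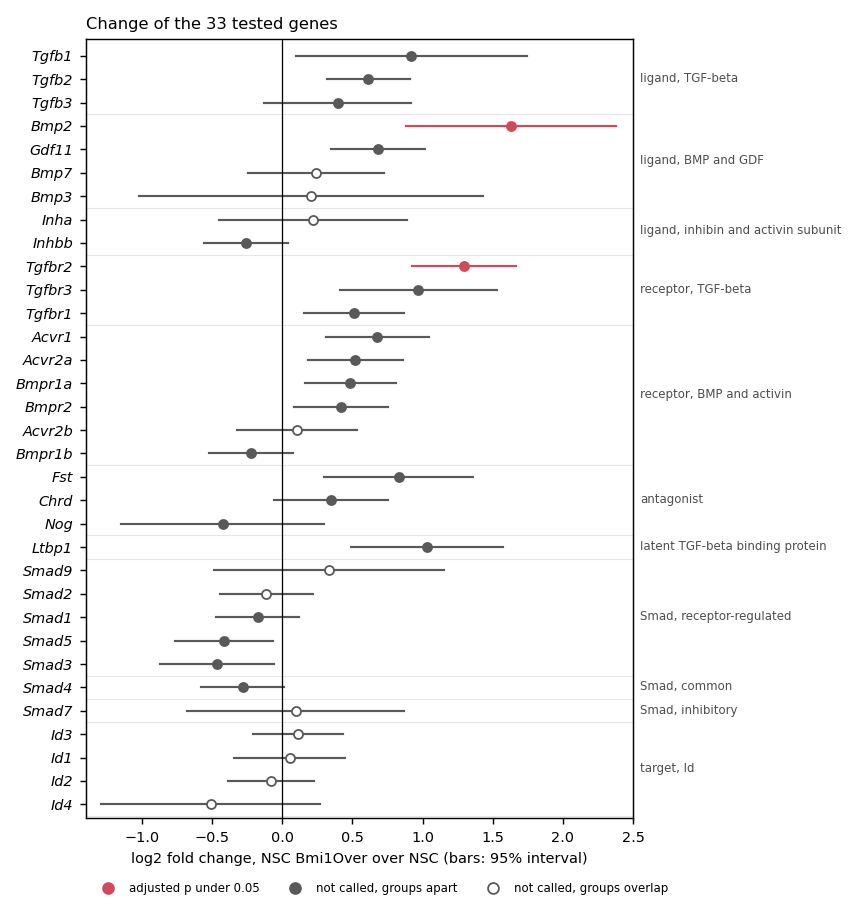
Log2 fold change of the 33 tested genes, NSC Bmi1Over over NSC, by role, with bars for the 95% interval of the edgeR fit and open points where the groups overlap. Bmp2 and Tgfbr2, in red, passed the test, Tgfbr1, Tgfbr3, Acvr1, Acvr2a, Bmpr1a and Bmpr2 lie to the right of 0 without passing it, and Smad3, Smad4 and Smad5 lie to the left.

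**Figure D5:**
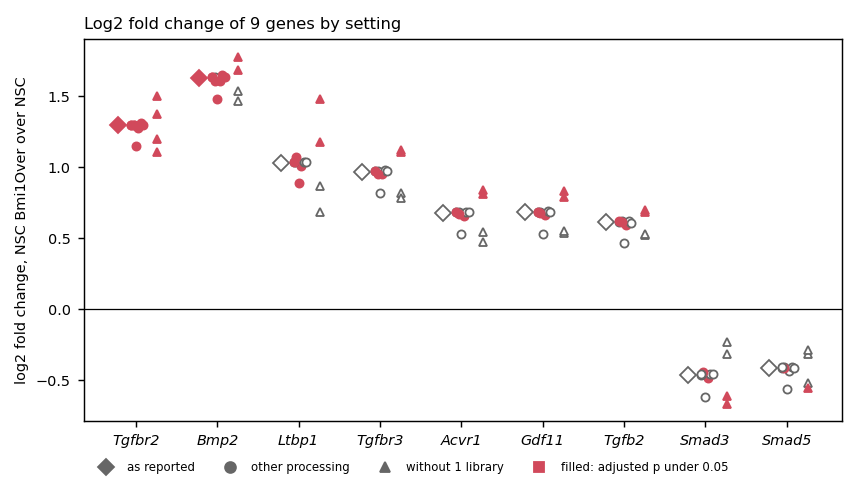
Log2 fold change of 9 genes (y axis) under the reported setting (diamonds), other processing (circles) and with 1 library left out (triangles), filled in red where the adjusted p was under 0.05. Tgfbr2 is filled throughout, Bmp2 in 9 of 12 alternatives, and no gene shown crosses 0.

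A further 99 genes of the pathway were looked at, of which 66 were tested and 8 called, all of them higher in NSC Bmi1Over, beside 2.03% of all tested genes called higher and 0.122% called lower. Their median log2 fold change was 0.163, with 38 positive and 28 negative. Fstl1, a secreted Follistatin-like protein, stood at 62.6 and 61.9 CPM in NSC and 139.7 and 139.1 CPM in NSC Bmi1Over (log2 fold change 1.16, edgeR adjusted p = 0.00704). Fibrillin-1 (Fbn1), which anchors latent TGF-beta complexes, and Emilin1, which restrains TGF-beta processing, had log2 values of 0.75 and 1.34 with adjusted p of 0.0451 and 0.0157. Rgmb, a BMP co-receptor, had 0.82 with an adjusted p of 0.0442, and Sostdc1, a BMP and Wnt antagonist, had 1.62 with 0.0414.

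Of the response genes, 2 of the 12 tested TGF-beta response genes and 1 of the 4 tested BMP response genes were called, all higher, beside 2.03% of all tested genes. Of those tested, 8 TGF-beta response genes had a positive and 4 a negative log2 value, and the BMP response genes split into 2 and 2. Ccn2, a TGF-beta and Yap target, stood at 0.444 and 0.712 CPM in NSC and at 7.08 and 9.56 CPM in NSC Bmi1Over, a log2 fold change of 3.88 (SE 0.32, edgeR adjusted p = 0.00316). Col4a1, a basement membrane collagen, had a log2 value of 0.84 with an adjusted p of 0.029. Atoh8, a BMP target gene, stood at 0.254 and 0.198 CPM against 1.26 and 0.928 CPM, with a log2 value of 2.19 and an adjusted p of 0.045. Hey1, a BMP and Notch target, had a log2 value of -0.80 (edgeR adjusted p = 0.0623) and Cdkn2b, a TGF-beta target that restrains the cell cycle, -0.63 (adjusted p = 0.133), and neither passed the test. None of the 17 tested intracellular regulators was called, where 5 had a positive and 12 a negative log2 value.

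Markers of other cell types moved for single genes beside these results. Folr1 was called higher among the 5 choroid plexus markers (2 tested), with Ttr, the defining gene, at 1 read in 3 libraries and 10 in the deepest. Their summed level was 21.0 and 11.2 CPM in NSC and 32.0 and 21.5 CPM in NSC Bmi1Over. Otx2, whose groups overlapped, held most of it, at 19.6 and 10.0 CPM against 25.7 and 16.2 CPM. Pf4 was called higher among the 4 platelet markers (2 tested), whose sum was 2.63 and 3.96 CPM against 7.14 and 6.35 CPM. Syt1 was called higher among 7 neuronal markers, of which 6 were tested, 2 with a positive and 4 with a negative log2 value. Their sum was 970.7 and 945.9 CPM against 1012 and 926.3 CPM. Map2 held most of it, at 919 and 879 CPM against 919 and 788 CPM. Aldh1l1 was called lower among 6 astrocyte markers, 3 with a positive and 3 with a negative log2 value. Their sum was 415.6 and 400.1 CPM against 401.6 and 465.4 CPM. The 8 meningeal and mesenchymal markers summed to 13.02 and 12.6 CPM against 14.6 and 14.2 CPM, with Dpt at 0 in every library and none called. Foxc1 held most of this sum, at 10.8 and 10.7 CPM against 11.7 and 11.3 CPM. The 7 oligodendrocyte-lineage markers summed to 2481 and 2609 CPM against 2565 and 2486 CPM with none called, but the NSC Bmi1Over libraries differed from each other in Sox10, at 0.286 and 4.64 CPM, and in Pdgfra, at 16.5 and 44.5 CPM. The endothelial sum was 2.69 and 4.04 CPM against 4.97 and 5.6 CPM, with Cldn5 at 0. Kdr and Tek, the 2 tested, held most of it and had log2 values of 0.57 and 0.86 (edgeR adjusted p of 0.249 and 0.183). The microglial sum was 1.33 and 1.98 CPM against 2.46 and 3.17 CPM, with C1qa at 0. P2ry12, the 1 tested, held most of it and had a log2 value of 0.82 (edgeR adjusted p = 0.149). In Kdr, Tek and P2ry12 both NSC Bmi1Over libraries lay above both NSC libraries, as in 29% of all tested genes, and none was called. The part of other cells in the values of the pathway was not tested, and in cultures fewer cells of a type and less RNA per cell cannot be told apart.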

How the data were processed

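RNASeq and H3K27me3 ChIPSeq of mouse NSC and NSC Bmi1Over were analysed. For RNASeq the authors used Trim Galore and then STAR on mm10, and they deposited read counts per gene, not normalised, of which the unstranded column was used. ChIPSeq reads were aligned with Bowtie2 2.3.4 and broad peaks called with MACS2; the deposited lists give each peak's fold enrichment (a ratio over background) and its -log10 q, and the study's methods state that 1 replicate per condition was kept for these lists. Of 50686 identifiers, 50462 matched GENCODE vM21, which has the same build as the files. Counts were normalised by TMM, filtered by filterByExpr and tested by the quasi-likelihood F-test of edgeR 4.0.16 in R 4.3.3 over 15521 genes (2 libraries per group, no covariate), with Benjamini-Hochberg adjustment over them. CPM use TMM-scaled library sizes, levels per kb divide by the union of exons, and 95% intervals come from the fit. The limit a count of 0 allows is 3 counts and covers counting error only. The biological coefficient of variation was 12.9%. Scripts were tested on simulated data. Alternatives were DESeq2 1.42.0, other scalings and filters, stranded columns, protein-coding genes only, a replicate block, leaving out each library, and other windows and peak thresholds. Genes given in every library are those called, marked, among the 10 highest per kb in NSC or among the 5 largest changes in each direction; further genes were given where their role called for it, chosen after their values were seen. The members and lists were chosen with earlier results of these data known. No columns of the authors' own comparisons were used.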

Additional observations from a re-analysis of the deposited data

How the results depend on the processing

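With 2 libraries per group the number of calls moved with the processing more than the values did. Of 393 log2 fold changes of members under 12 alternatives, 323 kept direction and side of the threshold, 50 passed it newly, 3 lost it (all of Bmp2) and 17 changed sign, in 10 members that were not called; 23 members never changed sign. The members called numbered 1 with DESeq2 size factors, 12 with no filter on low counts (11 higher, Smad3 lower), 11 by the DESeq2 Wald test and 1 to 13 with 1 library left out (up to 11 higher), where the lone library of a group is taken to vary like the other group. Over all genes, 334 calls became 537 with library size alone (346 of them higher, against 315 of 334; median log2 fold change -0.165), 2356 with no filter, 1488 by DESeq2 and 176 to 2546 with 1 library left out. With the replicate block 14 members (12 higher, Smad3 and Smad5 lower) and 3459 genes were called. The labels do not say whether same-numbered libraries share more than the number. Over the tested genes, deviations from the group means correlated at 0.169 between NSC replicate 1 and NSC Bmi1Over replicate 1. The cause of these shifts in the number of calls was not tested. Library size alone turned the sign of Acvr2b (-0.0455), Smad7 (-0.0683), Id1 (-0.0972) and Id3 (-0.0338). With 1 library left out, log2 values ran from -0.0838 to 0.302 for Acvr2b, -0.36 to 1.37 for Bmp3, -0.057 to 0.479 for Bmp7, -0.14 to 0.24 for Id1, -0.203 to 0.0182 for Id2, -0.0548 to 0.265 for Id3, -0.0793 to 0.592 for Inha, -0.295 to 0.0618 for Smad2, -0.48 to 0.40 for Smad7 and -0.0805 to 0.867 for Smad9. Members marked in NSC numbered 8 with peaks of at least 1000 bp (3.97% of protein-coding genes) and 6 with fold enrichments from 5 up (3.15%), and in NSC Bmi1Over 4 with a 1 kb window (3.05%), 1 with peaks of at least 1000 bp (1.56%) and 5 with fold enrichments from 5 up (2.61%).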
